A study of Mus musculus with 14 samples.

Results

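The chromatin of 9 genes of the Hedgehog pathway (*Shh*, *Ihh*, *Dhh*, *Ptch1*, *Smo*, *Gli1*, *Gli2*, *Gli3* and *Hhip*) was described in mouse embryonic stem cells with and without a knockdown of Smarcb1, a core subunit of the BAF chromatin remodelling complex. The genes were chosen by name, 9 of 55413 annotated genes and of 21938 protein-coding genes on the chromosomes used. For each gene, called regions at the promoter (TSS ± 1 kb) were counted apart from those in the rest of the gene body. At the promoters of *Gli1* and *Gli2*, H3K27me3 was called in control alone. These 2 of 9 promoters stand beside 23.3% of all protein-coding promoters with the mark in control, so the share was near the background, and each call ended under some of the other settings given below. The rank of the H3K27ac island in its own list was higher in kd by 91.9 percentage points at *Gli1* and by 73.5 at *Gli2*, beside a median of 24.8 over all promoters with an island in both conditions. The promoters of *Shh*, *Ihh* and *Ptch1* kept the same calls in both conditions, among them H3K27me3 and Ezh2 and none of H3K27ac.

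The cells were 81K1, an embryonic stem cell line made from OG2 cells through a single clone (K1), with an shRNA against Smarcb1 in the Rosa26 locus under a doxycycline-dependent promoter. Control cells were untreated, and kd cells received 1 µg/ml doxycycline every day for 72 h, so both conditions carried the same integrated cassette and differed in the drug. ChIP-seq was made with 5 antibodies, with 1 library per antibody and condition, which gave 10 libraries, and a further 4 samples were inputs. Smarca4 and H3K27me3 libraries came from Active Motif, and Ezh2, H3K27ac and H3K4me3 libraries from a genomics core facility in Münster. Antibody and site of library preparation therefore cannot be told apart. With no replicates there was no estimate of the error and no test, and each difference below is one between 2 libraries.

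Hedgehog ligands bind the receptor Ptch1, which otherwise holds the transmembrane protein Smo inactive. Active Smo changes the processing of the Gli transcription factors, of which Gli1 is an activator, Gli2 mainly an activator and Gli3 mainly a repressor. *Gli1*, *Ptch1* and *Hhip* are themselves target genes of the pathway, and the products of *Ptch1* and *Hhip* dampen it. In embryonic stem cells, promoters of developmental genes often carry the repressive mark H3K27me3, set by Ezh2 in the complex PRC2, together with H3K4me3, a mark of promoters, and are then called bivalent. H3K27ac marks active promoters and enhancers, and Smarca4 is the ATPase of the BAF complex.

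Promoter and motif sequences are shown, because the promoters differed in CpG content and because the Gli consensus was found inside called regions. RefSeq promoters (GRCm38.p6) were found for 7 of the 9 genes. The entries for *Shh* and *Gli1* were missing. For *Gli2* and *Dhh* the 250 bases before the RefSeq start lie before the TSS used here, and for *Ptch1* the RefSeq start lies 7863 bp downstream of it. Capitals mark CpG dinucleotides, of which these stretches hold 22 in *Gli2*, 41 in *Ptch1* and 9 in *Dhh*. None of the 3 stretches overlaps an exon of its gene.
Gli2, chr1:119053620-119053869, minus strand: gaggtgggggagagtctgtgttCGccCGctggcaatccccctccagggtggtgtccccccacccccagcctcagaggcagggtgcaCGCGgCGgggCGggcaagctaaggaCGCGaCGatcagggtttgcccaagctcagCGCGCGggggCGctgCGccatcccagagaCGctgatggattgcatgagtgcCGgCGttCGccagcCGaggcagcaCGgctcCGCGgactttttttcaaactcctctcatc
Ptch1, chr13:63565736-63565985, minus strand: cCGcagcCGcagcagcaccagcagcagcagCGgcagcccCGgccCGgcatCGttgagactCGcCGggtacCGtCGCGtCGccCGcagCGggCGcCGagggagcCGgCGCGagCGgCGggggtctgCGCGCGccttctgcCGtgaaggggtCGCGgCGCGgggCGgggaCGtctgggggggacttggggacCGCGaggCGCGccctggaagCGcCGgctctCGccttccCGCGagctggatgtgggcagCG
Dhh, chr15:98898541-98898790, minus strand: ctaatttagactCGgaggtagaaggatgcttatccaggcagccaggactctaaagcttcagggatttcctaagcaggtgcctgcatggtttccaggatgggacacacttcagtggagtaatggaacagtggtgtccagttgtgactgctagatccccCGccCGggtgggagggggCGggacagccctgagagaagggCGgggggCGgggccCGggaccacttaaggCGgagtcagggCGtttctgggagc

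The Gli consensus GACCACCCA, searched on both strands (TGGGTGGTC), occurred 12 times in the promoters and gene bodies of the 9 genes, and 5 of these matches lay in a Smarca4 peak of at least 1 condition. *Ptch1* held 3 matches, all of them in Smarca4 peaks of both conditions. One of these lay 125 bp past the TSS, in an untranslated part of an exon, and was the 1 match in the 9 promoters. Of all protein-coding promoters of the same length, 1.70% held a match. The central 500 bp of Smarca4 peaks at the 9 genes held a match in 2 of 58 peaks in control and in 2 of 51 in kd. Over all Smarca4 peaks cut to that length, the share was 0.613% in control and 0.524% in kd. The 100 bases around 3 intronic matches are shown on the strand of the gene, with the match in capitals. A match is a string of letters and not evidence of binding.
Ptch1, 7155 bp past the TSS, chr13:63566389-63566488, minus strand: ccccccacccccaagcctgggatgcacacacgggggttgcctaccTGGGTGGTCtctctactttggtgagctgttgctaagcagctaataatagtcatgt
Ptch1, 4305 bp past the TSS, chr13:63569239-63569338, minus strand: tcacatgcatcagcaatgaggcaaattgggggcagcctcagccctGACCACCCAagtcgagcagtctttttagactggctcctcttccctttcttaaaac
Gli2, 7065 bp past the TSS, chr1:119046500-119046599, minus strand: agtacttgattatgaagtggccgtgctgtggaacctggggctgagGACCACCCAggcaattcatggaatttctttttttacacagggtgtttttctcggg

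The first *Ptch1* match lay in regions of Smarca4, H3K27ac and H3K4me3 in both conditions and of H3K27me3 in control. The *Gli2* match lay in a Smarca4 peak of control and in H3K27ac and H3K4me3 islands of both conditions. Over the whole promoter, CpG observed over expected was 0.89 at *Gli3*, higher than at 97.2% of protein-coding promoters, 0.76 at *Ihh*, 0.67 at *Smo* and *Gli2* and 0.64 at *Ptch1*. It was 0.49 at *Gli1*, 0.47 at *Hhip* and 0.39 at *Shh* and *Dhh*, beside a median of 0.47 over all protein-coding promoters.

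Each list was read on its own scale. Smarca4 and Ezh2 peaks carry a MACS2 score and islands of the histone marks a SICER p-value, and neither was scaled between libraries. The rank of a region is therefore given as the percentage of its own list that is weaker. Islands with a p-value listed as 0 are tied at the top of their list (10.5% of H3K27me3 islands in control and 4.35% in kd, 7.65% and 13.8% of H3K4me3 islands), so no rank is given for them in the text. Lists held 79014 Smarca4 peaks in control and 72339 in kd, 6708 and 5364 Ezh2 peaks, 22909 and 18320 H3K27me3 islands, 39091 and 51100 H3K27ac islands, and 26130 and 33506 H3K4me3 islands. The H3K27ac lists were mostly repeat sequence, with 79.1% of islands at least 50% repeat-masked in control and 74.1% in kd. Of Ezh2 peaks, 45.9% were so in control and 3.24% in kd. Depth is unknown from the files, and the level of Smarcb1 itself was not measured by these libraries. As a check of the cell type, H3K27ac was called at the promoters of 6 of 8 embryonic stem cell markers in control and 7 in kd. Of all protein-coding promoters, 16.0% had such a call in control and 30.9% in kd. H3K27ac was called at 0 of 11 markers of other lineages in either condition, of which 9 carried H3K27me3 in both. Among the stem cell markers, *Klf4* and *Esrrb* carried H3K27me3 and no H3K27ac in control. In kd *Esrrb* alone did so.

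Smarca4 was called at all 9 promoters in both conditions, whereas 62.5% of protein-coding promoters had a call in control and 63.5% in kd. In control alone it was called at 0 of the 9 (2.69% of all) and in kd alone at 0 of the 9 (3.69%). H3K27me3 was called at 9 of 9 promoters in control (34.9% of all) and 7 of 9 in kd (29.2%). H3K4me3 was called at 8 of 9 in control (56.6%) and 9 of 9 in kd (60.4%). Ezh2 was called at 3 of 9 in control (7.13%) and 6 of 9 in kd (12.6%). H3K27ac was called at 4 of 9 in control (16.0%) and 5 of 9 in kd (30.9%). H3K27me3 and H3K4me3 were called together at 8 of 9 promoters in control (21.2%) and 7 of 9 in kd (21.6%). The share of the 9 with a call was above that of all protein-coding promoters for every antibody in both conditions.

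**Figure D1:**
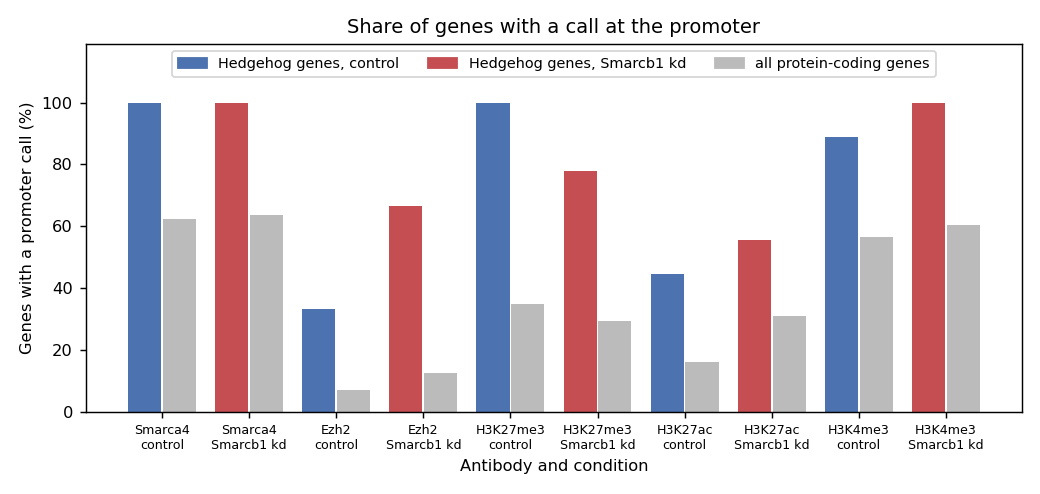
Percentage of genes with a called region at the promoter (y axis) for each antibody and condition (x axis, 1 library each). Blue and red bars are the 9 Hedgehog genes in control and Smarcb1 kd, and grey bars are all 21938 protein-coding genes. The Hedgehog bar is the taller one in each of the 10 pairs.

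The calls found in 1 condition alone concerned 5 of the 9 genes. H3K27me3 was called in control alone at *Gli1* and *Gli2* (8.15% of all promoters) and in kd alone at 0 of 9 (2.39%). Ezh2 was called in kd alone at *Dhh*, *Gli3* and *Hhip* (5.78%) and in control alone at 0 of 9 (0.283%). H3K27ac was called in kd alone at *Dhh* (16.8%) and in control alone at 0 of 9 (1.83%), and H3K4me3 in kd alone also at *Dhh* (4.59%) and in control alone at 0 of 9 (0.779%).

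**Figure D2:**
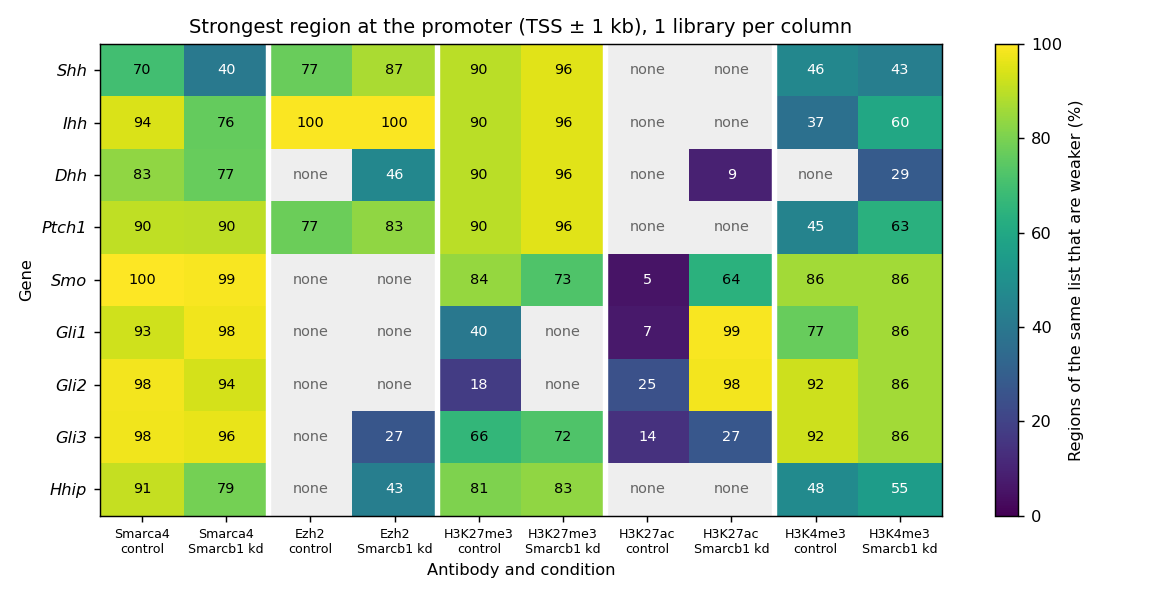
Rank of the strongest region at each promoter, as the percentage of the same list that is weaker (colour and number, 0 to 100), for the 9 genes (rows) in the 10 libraries (columns). Grey fields marked none have no call. H3K27ac ranked at 7 and 25 for Gli1 and Gli2 in control and at 99 and 98 in kd, where their H3K27me3 field is empty.

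The ligands *Shh* and *Ihh* were alike. *Shh* (chr5:28456815-28467256, minus strand), which patterns neural tube and limb, lay wholly in an H3K27me3 island in both conditions, 27800 bp long in control and 26800 bp in kd, with p-values listed as 0. Ezh2 peaks at its promoter scored 123 in control (rank 77.1) and 464 in kd (rank 87.3), and Ezh2 covered 41.8% of its gene body in control and 70.9% in kd. Ezh2 peaks were wider over the whole list in kd, with a median of 736 bp beside 354 bp in control, and the part of this in the coverage was not tested. H3K4me3 was called at the promoter with a rank of 46.4 in control and 42.7 in kd. Smarca4 had 7 peaks at *Shh* in each condition, and the promoter peak scored 100 in control (rank 69.8) and 53.0 in kd (rank 40.4). Of the promoters with Smarca4 in both conditions, 94.2% had a smaller decrease in rank than *Shh*, the same decrease or an increase. H3K27ac was called neither at the promoter nor in the body of *Shh*. Its islands in the *Shh* flanks were 97.6% to 100% repeat-masked.

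*Ihh* (chr1:74945315-74951672, minus strand), the ligand of cartilage and gut, had the strongest Ezh2 call of the 9 genes, with a score of 661 in control and 1216 in kd and a rank of 99.5 in both. Its H3K27me3 island was 98400 bp long in control and reached over the TSSs of *Cfap65*, *Cryba2* and *Fev*. In kd it was 35200 bp long and reached the TSS of *Cfap65*. The H3K4me3 island of the promoter ranked at 37.1 in control and 59.8 in kd, and Smarca4 at 94.2 and 76.4. No H3K27ac island was called in the gene or its flanks.

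*Dhh* (chr15:98891152-98898540, minus strand), the ligand of testis and peripheral nerve, differed from the other ligands. In control its promoter had Smarca4 peaks and H3K27me3 with a p-value listed as 0, and neither Ezh2 nor H3K4me3. In kd an Ezh2 peak (-163 to 625 bp from the TSS, score 114, rank 46.3) and an H3K4me3 island (-660 to 939 bp, p-value 2.80e-24, rank 28.9) were called there. A weak H3K27ac island also touched the promoter in kd (-1660 to -461 bp, p-value 6.99e-07, rank 9.31). That island was 59.2% repeat-masked and dropped out under 4 of the 7 alternative settings for calls. In the gene body, the Smarca4, Ezh2 and H3K4me3 regions between 2245 and 4809 bp lie at or beside the TSS of *Rhebl1*, a gene that overlaps *Dhh*, and cannot be given to either gene.

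*Ptch1* (chr13:63508328-63573598, minus strand) encodes the receptor. Its promoter in the annotation had H3K27me3 in both conditions with p-values listed as 0, Ezh2 with a score of 124 in control (rank 77.4) and 394 in kd (rank 83.3), and H3K4me3 at ranks of 44.6 and 63.4. Further coding TSSs lie 7863 to 9272 bp downstream, and their chromatin was different. They lay in an H3K4me3 island with a p-value listed as 0 in both conditions, in a Smarca4 peak scoring 399 in control (rank 98.2) and 332 in kd (rank 96.1), and outside any Ezh2 peak. An H3K27me3 island covered them in control (6598 to 9997 bp, p-value 4.27e-18, rank 30.3) and not in kd. The H3K27ac island there had a p-value of 4.45e-06 and a rank of 2.42 in control, and a p-value of 1.19e-36 and a rank of 88.3 in kd. The downstream TSSs thus had the same 10 calls as the promoters of *Gli1* and *Gli2*, while the upstream TSS had those of *Shh* and *Ihh*. At the downstream TSSs, the H3K27me3 and H3K27ac calls of control did not meet the stricter threshold described below. The H3K27ac rise there was not set against other promoters.

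Farther into *Ptch1*, an H3K27ac island between 41398 and 46797 bp ranked at 63.9 in control and 48.0 in kd and overlapped Smarca4 peaks of both conditions. Another at 18398 to 21597 bp was called in kd alone (p-value 1.68e-16, rank 60.7). Smarca4 had 15 peaks at the gene in control, of which 6 had no counterpart in kd, and 12 in kd, all of them shared. Of the 6, 4 lay at the 3′ end between 58188 and 61939 bp.

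*Smo* (chr6:29735503-29761365, plus strand), the signal transducer, had the strongest Smarca4 promoter peak of the 9 genes, with a score of 584 in control (rank 99.7) and 479 in kd (rank 99.0). H3K4me3 ranked at 86.0 in control and had a p-value listed as 0 in kd. With tied islands given the same rank, 54.0% of promoters with H3K4me3 in both conditions had as large a rise. The H3K27me3 island ran from -18702 to 4497 bp in control (p-value 6.48e-184). In kd it was replaced by 3 islands that left a gap over the TSS, from -15702 to -9903, -9102 to -503 and 498 to 4297 bp, and coverage of the promoter was 100% in control and 50.0% in kd. The H3K27ac island of the promoter began 98 bp past the TSS in both conditions. Its p-value was 1.69e-06 in control (rank 5.29) and 1.21e-17 in kd (rank 63.9). No Ezh2 peak was called at the promoter or in the body.

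*Gli1* (chr10:127329882-127341974, minus strand) encodes the activator that is also the usual readout of the pathway. H3K27ac covered the whole promoter in both conditions. The island ran from -2426 to 7573 bp in control with a p-value of 9.49e-07 and a rank of 6.96, and from -2026 to 9173 bp in kd with a p-value of 2.03e-94 and a rank of 98.9. A rise in rank as large as these 91.9 percentage points was seen at 15 of the 3099 protein-coding promoters with H3K27ac in both conditions (0.484%). Such a rise was open only to islands that ranked low in control, and the share among those alone was not computed. H3K4me3 ranked at 76.7 in control and had a p-value listed as 0 in kd, where 2 more islands were called in the gene body. With tied islands given the same rank, 32.6% of promoters with H3K4me3 in both conditions had as large a rise. An H3K27me3 island lay in the promoter's downstream part in control (574 to 1573 bp, p-value 2.19e-22, rank 39.9), and none was called there in kd. The H3K27me3 island at the 3′ end of *Gli1*, which spans the TSS of the overlapping gene *Arhgap9*, was called in both conditions.

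Smarca4 was also called over more of *Gli1* in kd. There were 8 peaks in control and 11 in kd, which covered 72.1% and 84.8% of the promoter and 43.2% and 69.9% of the gene body. The strongest promoter peak scored 239 in control (rank 92.6) and 395 in kd (rank 97.8). *Gli1* was the 1 gene of the 9 whose Smarca4 promoter rank was higher in kd. The rise was 5.23 points, and 28.9% of promoters with Smarca4 in both conditions had a rise as large. Peaks without a counterpart numbered 1 in control and 5 in kd.

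*Gli2* (chr1:118834132-119053619, minus strand), the activator that responds first to the signal, showed the same promoter calls. H3K27ac had a p-value of 1.09e-09 and a rank of 24.8 in control and a p-value of 4.02e-82 and a rank of 98.3 in kd. A rise as large as these 73.5 points was seen at 185 of the 3099 promoters (5.97%), and it too was open only to islands ranking low in control. The H3K27me3 island over the promoter (-781 to 4418 bp, p-value 3.20e-14, rank 17.6) was called in control alone. H3K4me3 had a p-value listed as 0 in both conditions. H3K27me3 islands in the flanks within 100 kb of the gene numbered 6 in control and 1 in kd. The 5 without a counterpart in kd ranked from 20.0 to 65.2. The whole list held 22909 islands in control and 18320 in kd, and no background share was computed for flanks.

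**Figure D3:**
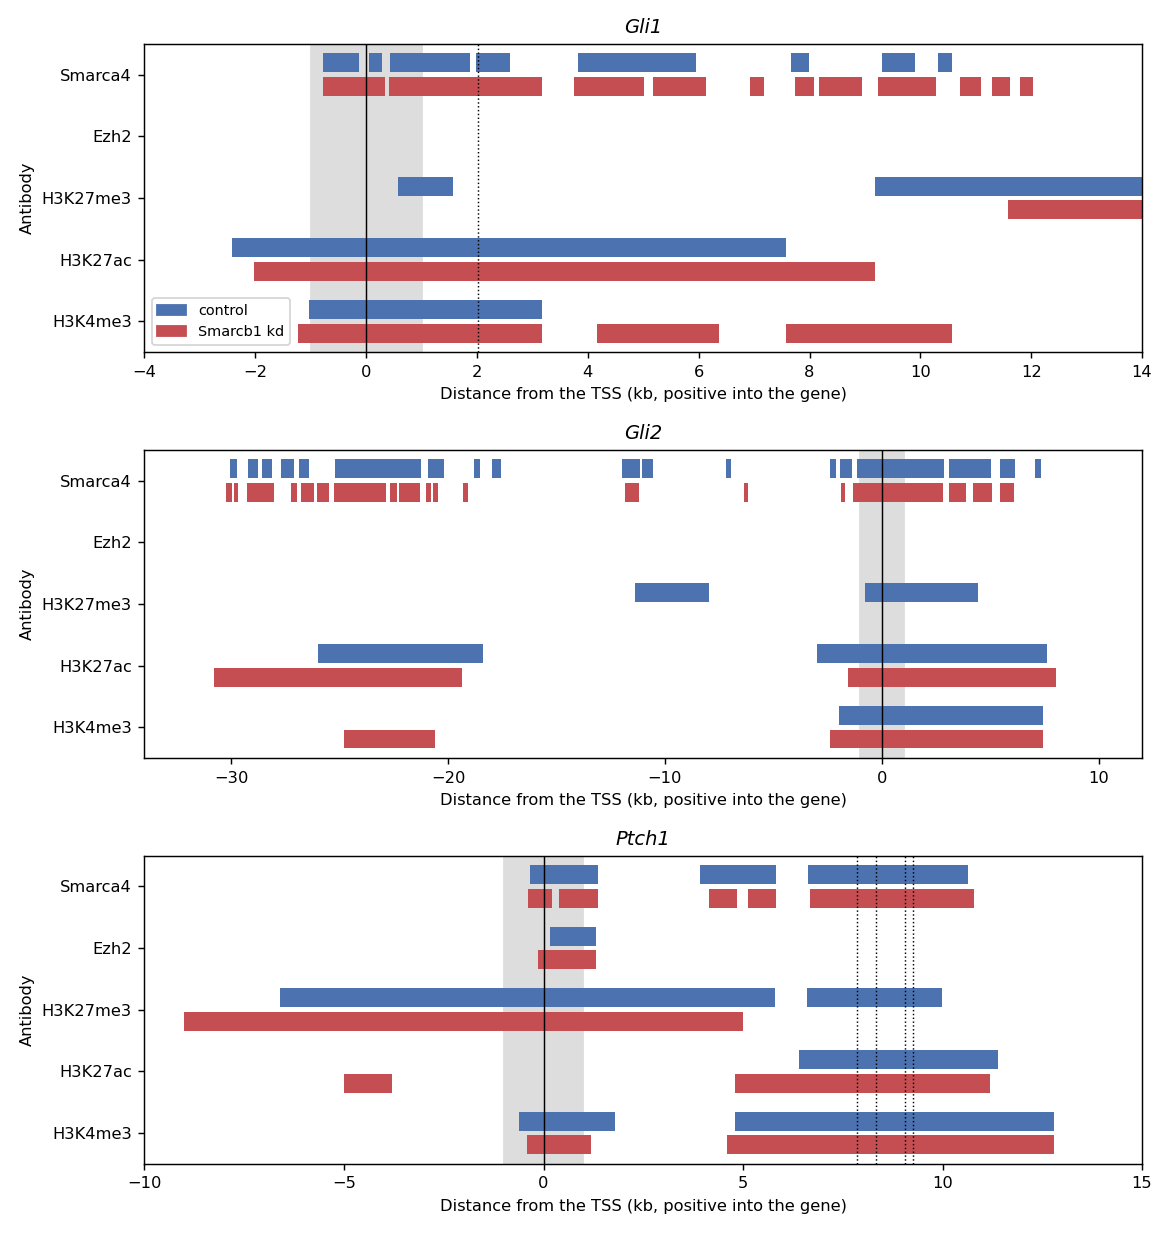
Called regions at Gli1, Gli2 and Ptch1 by distance from the TSS in kb (x axis) and antibody (y axis), blue for control and red for Smarcb1 kd, 1 library each. The grey band is the promoter, the solid line the TSS and dotted lines other coding TSSs more than 500 bp downstream. H3K27me3 bars at the promoters of Gli1 and Gli2 and at the downstream TSSs of Ptch1 are present in blue and absent in red.

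Smarca4 peaks at *Gli2* numbered 15 in control and 5 in kd. Of the 15, 12 had no counterpart in kd, and 11 of these lay deep in the gene, between 42871 and 139846 bp, where no kd peak was called. Within the gene, the peaks over its first 6132 bp were shared. Upstream, between -31 and -18 kb, lay a cluster of 8 Smarca4 peaks in control and 12 in kd. The strongest of them was weaker in kd, with a score of 243 in control (rank 92.9) and 167 in kd (rank 83.4), and where control had 1 peak of 3957 bp (-25220 to -21264 bp) kd had 3 shorter ones. The cluster overlapped an H3K27ac island with a p-value of 9.11e-19 and a rank of 62.2 in control and a p-value of 1.75e-102 and a rank of 99.1 in kd. An H3K4me3 island was called in this cluster in kd alone (-24781 to -20582 bp, p-value 2.32e-14, rank 11.6). The cluster lies in the intergenic flank, and no value here ties it to *Gli2*.

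*Gli3* (chr13:15463235-15730026, plus strand), which encodes mainly a repressor, had a single Smarca4 peak in promoter and body in each condition, with a score of 377 in control (rank 97.8) and 345 in kd (rank 96.5). H3K4me3 had p-values listed as 0. Islands of H3K27me3 flanked the TSS on both sides in both conditions, and the downstream island ranked at 66.1 in control and 72.4 in kd. An Ezh2 peak was called in kd alone (905 to 1415 bp, score 67.0, rank 26.8). H3K27ac had a p-value of 6.75e-08 in control (rank 14.2) and 3.19e-09 in kd (rank 27), and a rise of 12.7 points or more was seen at 63.2% of promoters. With lists of equal length the change at *Gli3* was -9.70 points, so its direction was not stable. *Gli3* thus had both acetylation and trimethylation calls in both conditions, but its H3K27ac calls were absent from both at the stricter threshold described below, and its H3K27me3 calls were absent from both when a region had to overlap by at least 50%.

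*Hhip* (chr8:79965851-80058006, minus strand) encodes a protein of the cell surface that binds and sequesters the ligands. Its H3K27me3 island ranked at 80.6 in control and 83.4 in kd, and H3K4me3 at 47.8 and 55.4. An Ezh2 peak at the promoter was called in kd alone (-152 to 735 bp, score 104, rank 42.9). Smarca4 covered 81.7% of the promoter in control and 26.8% in kd, with the strongest peak at a score of 219 (rank 91.2) and 140 (rank 79.0), and its 2 body peaks were called in control alone. Chromosome 8 held 4.68% of the H3K27me3 islands in control and 7.37% in kd, and the part of this in the result at *Hhip* was not tested.

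The changes in H3K27ac and H3K27me3 calls were set against those of comparable promoters. Over all 3099 promoters with H3K27ac in both conditions the median change in rank was 24.8 points, so that a higher rank in kd was common. The lists differ in length and their depth is unknown. Large rises were open only to promoters with a low rank in control, and the shares below were not limited to such promoters. With the kd list cut to its strongest 39091 islands, the length of the control list, the rise was 91.6 points at *Gli1*, as large at 12 of 2895 promoters (0.415%), 73.0 at *Gli2*, as large at 132 (4.56%), and 47.5 at *Smo*, as large at 638 (22.0%), beside a median of 19.7. The islands at these 4 Hedgehog promoters were 10.9% (*Smo*) to 28.2% (*Gli1*) repeat-masked in control and 10.8% (*Smo*) to 25.9% (*Gli1*) in kd. A rise of at least 50 points, a limit chosen after the values were seen, was found at 3 of the 4 Hedgehog promoters with both calls and at 24.8% of all 3099. With lists of equal length it was found at 2 of the 4 and at 20.0% of all 2895. Among promoters with H3K27me3 in control, 23.3% had none in kd, and of the 9 genes 2 did, a share near the background. Among promoters with H3K27me3, H3K4me3 and H3K27ac together in control, 109 of 288 had no H3K27me3 in kd (37.8%), which was so for 2 of the 4 Hedgehog promoters in this state. Among promoters with H3K27me3 and no Ezh2 in control, 20.0% had an Ezh2 call in kd, and 3 of 6 Hedgehog promoters did.

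The weak calls limit these counts. At a stricter threshold (p of at most 1e-10 for H3K27ac and 1e-20 for the other marks, score of at least 50), 0 of 9 promoters had H3K27ac in control and 3 of 9 in kd (*Smo*, *Gli1* and *Gli2*), and *Gli2* had no H3K27me3 call in control. Within 0.5 kb of the TSS, *Gli1* had no H3K27me3 call in control and *Gli3* no Ezh2 call in kd. With an overlap of at least 50%, H3K27me3 was called neither at *Gli1* nor at *Gli3* in either condition and not at *Smo* in kd, and *Shh* had no H3K4me3 call in either condition and no Ezh2 call in kd. With that overlap *Gli3* also had no Ezh2 call in kd, and *Dhh* no H3K27ac call in kd. With lists of equal length, *Gli2* had no H3K27me3 call in control.

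**Figure D4:**
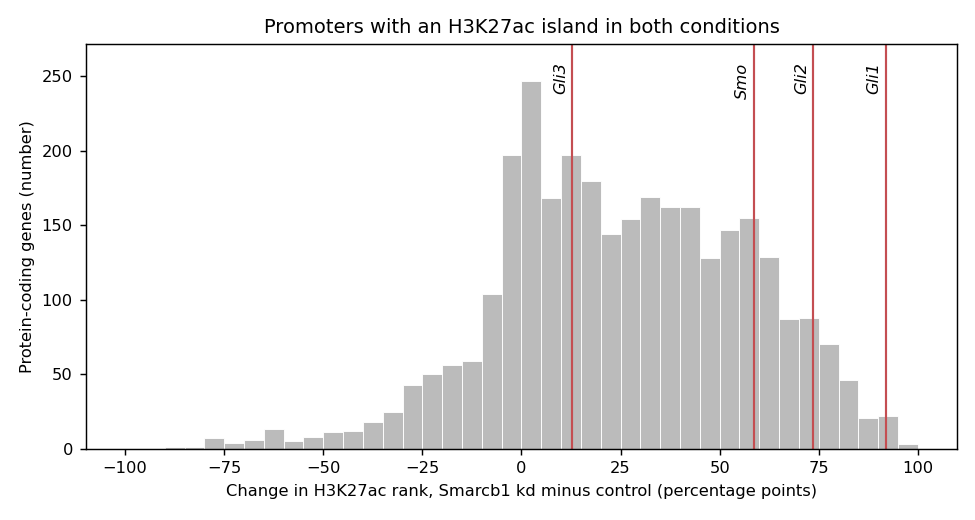
Number of protein-coding genes (y axis) by the change in rank of the strongest H3K27ac island at the promoter, kd minus control, in percentage points (x axis, bins of 5 points), for the 3099 genes with an island in both conditions. Red lines mark Gli3 at 12.7, Smo at 58.6, Gli2 at 73.5 and Gli1 at 91.9, the last near the right end of the distribution. With lists of equal length the value of Gli3 is -9.70.

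In gene bodies outside the promoter, Smarca4 was called in 7 of 9 genes in both conditions (39.7% of all protein-coding genes in control and 39.1% in kd). Ezh2 was called in 4 in control (7.49%) and 3 in kd (5.07%), H3K27me3 in 2 (18.5%) and 1 (13.9%), H3K27ac in 2 (22.1%) and 3 (30.7%), and H3K4me3 in 3 (17.2%) and 5 (22.0%). A region that began in the promoter and ran into the body was counted at the promoter. Of 58 Smarca4 peaks at promoters and bodies of the 9 genes in control, 24 had no counterpart in kd, beside 41.3% of the peaks at all protein-coding genes. Of 51 in kd, 10 had none in control, beside 27.6%. The control count thus matched the background, and *Gli2* alone held 12 of the 24.

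**Figure D5:**
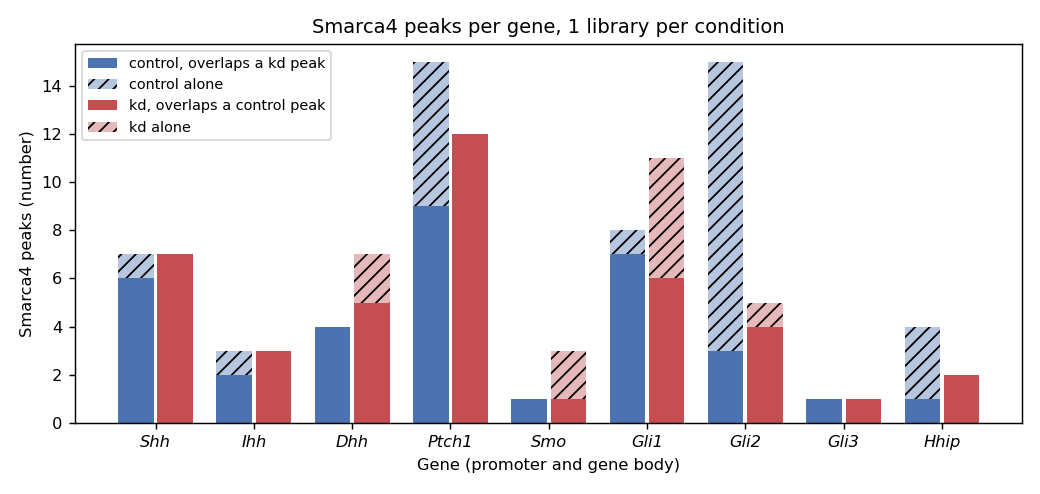
Number of Smarca4 peaks at promoter and gene body (y axis) of each gene (x axis), control in blue and Smarcb1 kd in red, 1 library each. Solid parts overlap a peak of the other condition and hatched parts do not. Gli2 has 15 peaks in control, 12 of them hatched, and 5 in kd, and Gli1 has 8 in control and 11 in kd.

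By their 10 promoter calls, *Shh*, *Ihh* and *Ptch1* were identical, and 1154 other protein-coding genes (5.26%) had the same 10 calls. Among other genes of the pathway these were *Hhat*, which attaches palmitate to the ligands, *Scube1*, *Scube2* and *Scube3*, which help to release them, the co-receptors *Gas1* and *Lrp2*, and the target genes *Foxc2*, *Foxf1*, *Grem1*, *Nkx2-2*, *Nkx6-1*, *Olig2* and *Sox9*. *Gli1* and *Gli2* shared their calls with each other and with 89 other genes (0.406%), among them *Grk2*, a kinase that phosphorylates Smo. *Hhip* had the calls of 753 other genes (3.43%), among them the co-receptor *Boc*. The calls of *Smo* were found in 86 other genes, those of *Gli3* in 34 and those of *Dhh* in 6, none of them in the pathway list.

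Another 51 genes of the pathway were counted by role. H3K27ac was called at 7 of the 51 promoters in control (16.0% of all protein-coding promoters) and at 20 in kd (30.9%), with 13 called in kd alone (16.8%) and 0 in control alone (1.83%). More H3K27ac calls in kd were thus general to the lists. Among the 13 were the co-receptor *Cdon*, the β-arrestin *Arrb2*, 5 regulators of Gli proteins (*Spop*, *Btrc*, *Prkar1a*, *Gsk3b* and *Dyrk2*) and 5 target genes (*Ccnd1*, *Bcl2*, *Sfrp1*, *Jag2* and *Hand2*). H3K27me3 was called at 28 of the 51 in control (34.9%) and 24 in kd (29.2%). The 4 with a call in control alone, close to the 8.15% of all promoters, were *Grk2*, the kinesin gene *Kif3a*, *Sufu*, whose product retains Gli proteins in the cytoplasm, and *Dyrk2*, and 0 had one in kd alone (2.39%). Ezh2 was called at 19 in control (7.13%) and 21 in kd (12.6%), with *Boc* and *Jag2* in kd alone (5.78%). Smarca4 was called at 49 in both conditions (62.5% and 63.5%), and H3K4me3 at 47 and 50 (56.6% and 60.4%). Ezh2 was called at 4 of the 5 genes of ligand maturation and release and at 13 of the 16 target genes in control, and at 0 of the 13 genes of Smo regulation and ciliary relay and 0 of the 12 genes of Gli regulation in either condition.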

How the data were processed

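ChIP-seq was analysed from the authors' lists of called regions, 1 per antibody and condition. According to the methods, reads were trimmed (Trim Galore), aligned to mm10 (Bowtie2) and filtered with SAMtools 1.9 to unique alignments. MACS2 with its default settings gave the peaks of Smarca4 and Ezh2, and SICER (window 200 bp, gap 600 bp) gave the islands of H3K27me3, H3K27ac and H3K4me3. The deposited score of a peak is the authors' MACS2 score, and the deposited p-value of an island is the SICER p-value the authors filtered on. The methods and the titles of the background samples name input, whereas peak names and the antibody labels of these samples name IgG. The inputs entered through these calls alone, and reads, depth and the authors' differential calls were not used.

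Regions were overlapped (at least 1 bp) with GENCODE M21 genes on GRCm38, with Python 3 and numpy. Promoters were TSS ± 1 kb. A region touching the promoter was counted there and otherwise in the gene body. Flanks ran 100 kb or to the next protein-coding gene. Bases in lower case in the reference sequence counted as repeat-masked. The overlap step was tested on simulated regions. No test was made, since there was 1 library per group.

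The 9 genes and the pathway and marker lists were chosen with earlier results of these data known. The rule named all 9 genes, pathway genes called in 1 condition alone for H3K27me3, Ezh2 or H3K27ac, and those whose 10 promoter calls equalled those of one of the 9. One gene that the rule names is counted but not reported here by name. Alternatives were a stricter threshold, promoters of 0.5 and 2.5 kb, any coding TSS, an overlap of at least 50%, lists of equal length, regions under 50% repeat-masked and all annotated genes. The ranking of H3K27ac islands without repeats and in lists of equal length and the rise of at least 50 points were added after the data were seen.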

Additional observations from a re-analysis of the deposited data

How the results depend on the processing

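Of the 20 counts of genes and regions, all stayed within 1.5 times their value with promoters of 0.5 or 2.5 kb, any coding TSS, an overlap of at least 50%, lists of equal length and without repeat-masked regions, and 17 did at the stricter threshold. There, the genes with H3K27ac at the promoter numbered 0 in control and 3 in kd, and H3K27ac regions at promoters and bodies numbered 1 in control. The limit of 1.5 times is wider than most differences between conditions in these counts. A count that stays within it does not show that such a difference held. With islands under 50% repeat-masked alone, the H3K27ac rank rise was 85.8 points at *Gli1*, as large at 25 of 2807 promoters (0.891%), and 60.6 points at *Gli2*, as large at 273 (9.73%). It was 56.8 points at *Smo* and 6.18 at *Gli3*, and the median over all these promoters was 16.8. With lists of equal length it was 91.6 points at *Gli1*, 73.0 at *Gli2* and 47.5 at *Smo*, and reversed to -9.70 at *Gli3*. Counts at single promoters moved by over 1.5 times in between 1 and 11 of 90 cases per setting. The H3K27me3 call in control ended at *Gli2* at the stricter threshold and with lists of equal length, at *Gli1* within 0.5 kb and with an overlap of at least 50%, and at *Gli3* with that overlap. Over all annotated genes the share with a promoter call was lower for every list, for example 4.12% for Ezh2 in control. No replicate could be left out. No paired analysis was possible because each group held 1 library. Depth, which sets how weak a region can be called, is unknown from the files.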
